A study of Mus musculus with 9 samples.

Results

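The genes described here are the nuclear-encoded subunits and assembly factors of the respiratory chain, in single cells of the mouse trigeminal ganglion. They were chosen by symbol, as every gene in the expression table whose name begins with Nduf, Uqcr, Cox4, Cox5, Cox6, Cox7, Cox8 or Atp5, which gave 88 of 21536 genes. The table holds 6997 cell barcodes and 30491529 unique molecular identifiers (UMIs, each standing for 1 captured mRNA), from 9 Drop-seq runs of ganglia of wild type FVB/N mice. The mice were aged 3 to 6 weeks by the sample records. For these runs the paper's methods give a narrower range, with a lower upper age. Ganglia of many mice of both sexes were combined for each run, the dissociated cells were enriched on a Percoll gradient and depleted of glia with a neuron isolation kit, and the barcodes do not name the run or the mouse they came from. They were therefore treated as 1 pooled sample, with no replicates and no test between groups, and the 95% intervals given are exact and cover counting error only.

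The respiratory chain passes electrons from NADH through complex I, complex III and complex IV of the inner mitochondrial membrane to oxygen, and the ATP synthase uses the resulting proton gradient to make ATP. Most subunits are encoded in the nucleus and imported, and a small core is encoded by mitochondrial DNA, so the complexes are built from both genomes. Sensory neurons differ in the caliber and myelination of their axons and in how often they fire, and these features bear on how much ATP they use.

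The 88 genes were divided by role into the N module of complex I, which oxidizes NADH (10 genes), its Q module, which reduces ubiquinone (6), its membrane arm (20), its assembly factors (8, Atp5sl included), complex III (8), complex IV with its tissue isoforms (19) and the ATP synthase with related genes (17). Every one of them had a UMI in at least 1 neuron, and 79 reached 20 CPM (UMIs of a gene scaled to 1000000 UMIs in all) over all neurons. Drop-seq captures the 3′ ends of transcripts, so a long and a short mRNA both count as 1 UMI and levels were not divided by length. RefSeq gives a GRCm38.p6 position for all 88 genes, 85 by symbol and 3 by a synonym, on 19 chromosomes.

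Groups of barcodes were set by a few marker genes that are not among the 88. Neurons had 500 to 7500 detected genes, no Epcam UMI and a UMI for at least 3 of 6 neuronal genes, and there were 3855 of them. The 4 neuron groups were the Nefh neurons (Nefh 5 or more UMIs and no Trpv1, 709 barcodes), the Trpm8 neurons (Trpm8 2 or more, 244), the Mrgprd neurons (Mrgprd 2 or more, 379) and the Calca Trpv1 neurons (Calca 5 or more and Trpv1 1 or more, 992). Nefh, a heavy neurofilament, marks large myelinated neurons, Trpm8 is the cold and menthol receptor, Mrgprd marks nonpeptidergic nociceptors, and Calca and Trpv1 encode CGRP and the capsaicin receptor of peptidergic nociceptors. Among the other 3142 barcodes, 4 groups were set by Gh at 10% of UMIs or more (543 barcodes), Mobp 1 or more (223), Flt1 1 or more (137) and Omp 2 or more (158), for pituitary growth hormone, a myelin protein, an endothelial VEGF receptor and the olfactory marker protein. Genes not used to choose the groups are given for the Trpm8, Mrgprd and Flt1 groups only. Foxp2 was at 108 CPM in Trpm8 neurons and 0.306 in Mrgprd neurons, Lpar3 at 443 CPM in Mrgprd neurons and 4.24 in Trpm8 neurons, and Cldn5 at 377 CPM in Flt1 barcodes and 0.430 over all neurons.

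The promoters of these genes are a natural place to look for shared sequence. RefSeq windows of the GRCm38.p6 build, from 250 bases before to 50 bases after a start site, were at hand for 70 of the 88 genes. The core recognized by nuclear respiratory factor 1 (NRF1), written GCGCA, any base and GCGC, lay on either strand in the windows of 17 of these 70 genes, or 24.3%, and in those of 5.19% of all 27025 genes with a window. The Ets and GABP core CCGGAAG was in 15 of 70 (21.4%, all genes 9.93%), and the YY1 core AAGATGGC in 9 (12.9%, all genes 3.19%). The estrogen-related receptor letters TCAAGGTCA were in 1 (1.43%, all genes 0.466%), and CCAAT was in 30 (42.9%, all genes 41.1%). The 30 bases around an NRF1 match are given for Ndufaf5 and Atp5c1, which differed most between neuron groups with a window holding it, for Cox6a1, among the most abundant, for the core complex III gene Uqcrc1, and for the subunit c paralogs Atp5g2 and Atp5g3. They are written 5′ to 3′ on the strand of the gene with the matched letters in capitals.
Ndufaf5: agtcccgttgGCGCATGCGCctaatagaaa
Atp5c1: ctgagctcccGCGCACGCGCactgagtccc
Cox6a1: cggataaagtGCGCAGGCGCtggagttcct
Uqcrc1: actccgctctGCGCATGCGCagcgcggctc
Atp5g2: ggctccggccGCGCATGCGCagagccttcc
Atp5g3: gagccgcaccGCGCTTGCGCgcccagcccc
These lie at chr2:140170652-140170681 (plus strand) for Ndufaf5, at chr2:10080430-10080459 (minus) for Atp5c1 and at chr5:115349056-115349085 (minus) for Cox6a1. Those of Uqcrc1, Atp5g2 and Atp5g3 are at chr9:108936668-108936697 (plus), chr15:102671070-102671099 (minus) and chr2:73911295-73911324 (minus). The match starts 16 bases after the start site of its window in Ndufaf5 and 17 bases before that of its window in Atp5c1. These start sites are not the outer ends of the genes. Ndufaf5 begins at 140170584 and Atp5c1, on the minus strand, at 10080510, so both matches lie inside the gene limits. Such a match describes the letters and does not show that a factor binds there, and Cox5a, Ndufa12, Ndufab1 and Ndufa4 had none of the 5 motifs in their windows. The 27025 genes of the reference exceed the 21536 of the expression table, so they are not limited to expressed genes. A reference matched for expression or base content is not given.

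Neuron groups differed in how much of their mRNA came from these genes. The 88 genes together took 3.96% of the UMIs of all neurons (95% interval 3.95 to 3.97). Their summed share was 6.31% in Trpm8 neurons (6.28 to 6.34), 4.90% in Nefh neurons (4.89 to 4.92), 3.34% in Calca Trpv1 neurons (3.32 to 3.35) and 3.05% in Mrgprd neurons (3.03 to 3.06). The 1769 neurons of none of these groups were at 3.59%. Trpm8 neurons thus gave 2.07 times the share of Mrgprd neurons (2.05 to 2.09).

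Single barcodes showed the same order with broad overlap of some groups. The quartiles were 4.92% and 7.41% in Trpm8 neurons, with a median of 6.29%, and 2.65% and 3.35% in Mrgprd neurons, with a median of 3.02%. These ranges did not overlap, and 89.8% of Trpm8 neurons lay above the 90th percentile of Mrgprd neurons, 3.66%. Nefh neurons were the most spread, with an interquartile range of 3.22% to 6.44% and a standard deviation of 2.173 percentage points over barcodes, against 1.76 in Trpm8 neurons, 0.754 in Calca Trpv1 neurons and 0.672 in Mrgprd neurons.

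**Figure D1:**
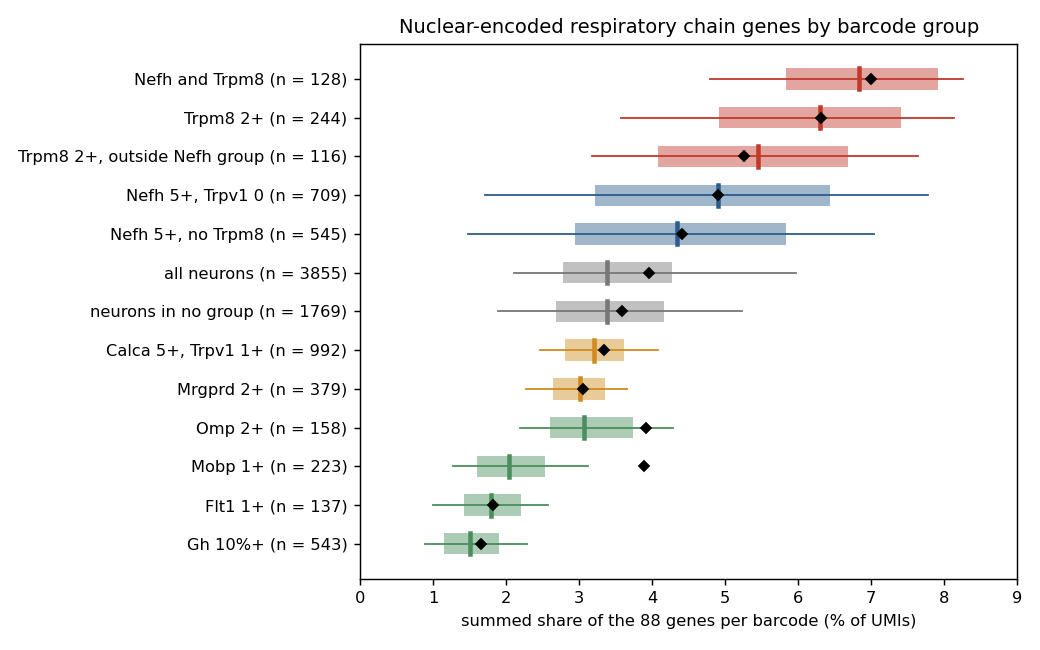
Summed share of the 88 genes per barcode, in percent of UMIs, for each group; bars span the quartiles, thick lines mark the median, thin lines the 10th to 90th percentile and diamonds the pooled share. Medians run from 6.84% in neurons of both the Nefh and the Trpm8 group down to 1.51% in Gh barcodes, and the diamonds of the Mobp and Omp groups lie above most of their barcodes.

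The Nefh and Trpm8 limits met in 128 neurons, and these had a higher share than either group, 6.997% (6.95 to 7.04). Nefh neurons with no Trpm8 UMI (545 barcodes) were at 4.41% and Trpm8 neurons outside the Nefh group (116) at 5.26%. The Nefh limit also asks for no Trpv1 UMI, so the 116 may include neurons of high Nefh with Trpv1. The 545 may include neurons whose Trpm8 mRNA was not captured. With neurons that met the limits of 1 group only, the share of Trpm8 neurons was 1.45 times that of other neurons, against 1.71 with the overlap kept. Of 79 genes compared between the neurons of both groups and the Nefh neurons with no Trpm8 UMI, 78 had a ratio above 1 and 52 were at least 1.5 times higher, and 0 lower, where 10.3% of all genes were that much higher and 17.6% lower. The exception was Ndufaf2, an assembly factor related in sequence to Ndufa12. Between the neurons of both groups and the other Trpm8 neurons, 74 of 79 were above 1 and 14 at least 1.5 times higher (all genes 7.61%) with 0 lower (all genes 12.5%). Trpm8 neurons outside the Nefh group and Nefh neurons with no Trpm8 UMI were closer, with 5 genes at least 1.5 times higher (all genes 11.6%), 1 lower (all genes 14.5%) and a median ratio of 1.18.

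The order of the neuron groups was also read at matched depth. Trpm8, Nefh and Mrgprd neurons had similar medians of 5671, 5714 and 5371 UMIs per barcode, and Calca Trpv1 neurons had 3767. In bands of depth from 1000 to 2000 UMIs up to 16000 or more, the share ran from 5.49% to 6.76% in Trpm8 neurons, from 4.49% to 5.09% in Nefh neurons, from 3.21% to 3.60% in Calca Trpv1 neurons and from 2.56% to 3.07% in Mrgprd neurons, so that the order held in every band. RNA of other cells was present in all neuron groups. The summed share of 7 genes of pituitary, blood and myelinating cells (Gh, Prl, 4 hemoglobin genes and Mbp) was 0.441% in Trpm8 neurons, 0.350% in Nefh neurons, 0.349% in Mrgprd neurons and 0.628% in Calca Trpv1 neurons. With only neurons under 1% for these genes, the share against other neurons was 1.68 times in Trpm8 neurons, 1.398 in Nefh, 0.717 in Mrgprd and 0.780 in Calca Trpv1 neurons, against 1.71, 1.41, 0.738 and 0.793 with all neurons.

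**Figure D2:**
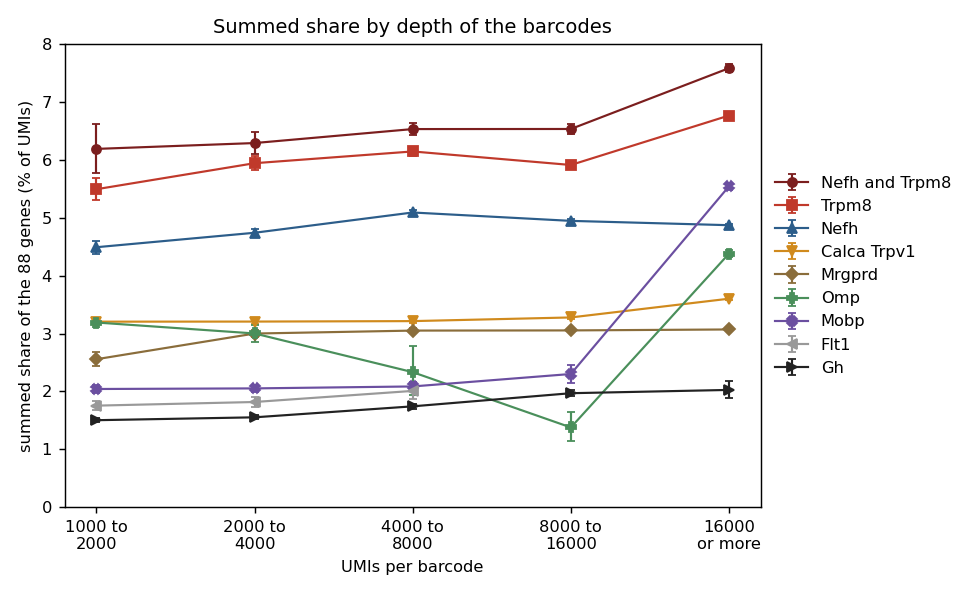
Summed share of the 88 genes, in percent of UMIs, by UMIs per barcode; lines join bands of 1 group and bars are 95% exact binomial intervals. Trpm8 neurons lie between 5.49% and 6.76% and Mrgprd neurons between 2.56% and 3.07%, while the Mobp and Omp groups reach 5.54% and 4.38% in the deepest band, which holds 7 and 6 barcodes.

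Trpm8 neurons were higher in nearly the whole set. Against neurons outside the group, all 79 genes compared (mean of both levels 20 CPM or more) had a ratio above 1, with a median of 1.67 where the median of all 7037 genes was 0.964. A fold of 1.5 was taken as the limit of a call. By it 64 of the 79 were higher and 0 lower, where 9.42% of all genes were higher and 15.7% lower. These 64 held all 8 genes of complex III, all 6 of the Q module, 17 of 19 in the membrane arm, 11 of 12 in complex IV, 13 of 16 in the ATP synthase, 5 of 10 in the N module and 4 of 8 assembly factors.

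In Nefh neurons, 78 of 79 genes had a ratio above 1 to neurons outside the group, with a median of 1.39 (all genes 0.976). Of them 24 were at least 1.5 times higher and 0 lower, where 6.51% of all genes were higher and 7.17% lower. At a fold of 2 only 1 of 79 was higher (all genes 2.27%). Assembly factors (5 of 8) and complex III (4 of 8) had the largest parts past the limit, and the membrane arm of complex I the smallest, with 3 of 19. Only 1 gene, Atp5g2, which encodes a precursor of the c subunit of the ATP synthase ring, had a ratio below 1, at 0.888 (0.750 to 1.05), an interval that includes 1.

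Both nociceptor groups lay on the other side. Mrgprd neurons had a median ratio of 0.739 to neurons outside the group (all genes 0.983), with 75 of 79 below 1, 21 at least 1.5 times lower (all genes 14.0%) and 0 higher (all genes 12.9%). Between 2000 and 10000 UMIs per barcode 12 of 78 were lower, near the 15.5% of all genes, and at a fold of 2 only 3 of 79 were (all genes 7.36%). Calca Trpv1 neurons had a median of 0.808 (all genes 1.003), with 74 of 79 below 1, but 7 of 79 past the limit, or 8.86%, was close to the 8.30% of all genes that were as much lower. None of the 79 was at least 1.5 times higher there, where 7.63% of all genes were. Among the neuron groups Trpm8 neurons had the highest level of 75 of the 79 genes, Nefh neurons of 3 (Atp5s, Ndufaf2 and Ndufaf7) and Mrgprd neurons of 1, Ndufv1. The lowest level was in Mrgprd neurons for 59 and in Calca Trpv1 neurons for 20.

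**Figure D3:**
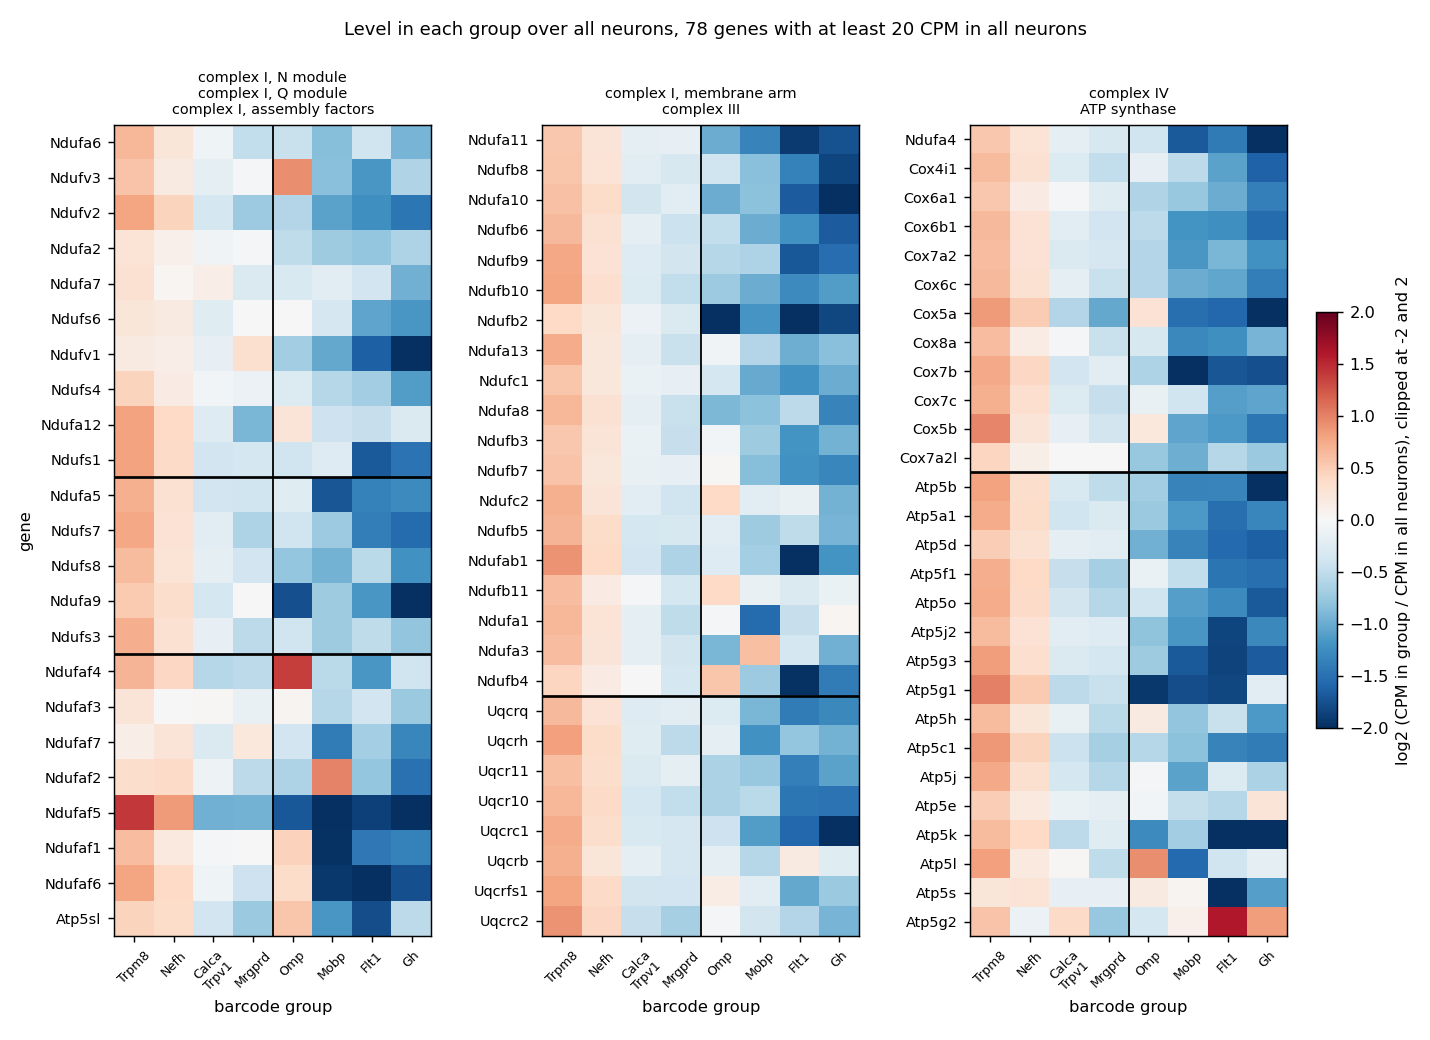
Level of 78 of the 79 genes with at least 20 CPM over all neurons (1 is not reported here), as log2 of its CPM in a group (columns) over that in all neurons, clipped at a 4-fold difference in either direction and ordered by level within each complex; the Omp and Mobp columns use barcodes with 200 to 7500 genes. The Trpm8 column is above 0 throughout, the Mrgprd column is below 0 for most genes, and Atp5g2 stands out in the Flt1 and Gh columns.

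The most abundant genes followed the summed share. Complex IV took 1.203% of the UMIs of all neurons and the ATP synthase 1.06%, and the 5 highest genes held 18.4% of the UMIs of the set. Ndufa4, a complex IV subunit first described in complex I (chromosome 6, 11900372 to 11907450), was at 2591 CPM in Trpm8, 2150 in Nefh, 1568 in Calca Trpv1 and 1418 in Mrgprd neurons. Cox4i1, the common form of subunit 4, was at 2707, 2163, 1452 and 1253 CPM in the same order. Atp5b, the catalytic beta subunit, was at 2427, 1774, 1131 and 973 CPM. These abundant genes therefore differed 1.83-fold to 2.49-fold between their highest and lowest neuron group, and Cox6a1, Cox6b1 and Cox7a2, the next in level, differed 1.73-fold, 2.05-fold and 1.92-fold.

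Some genes spread more than the set. Ndufaf5, an assembly factor of complex I that hydroxylates a residue of Ndufs7 (chromosome 2, 140170584 to 140218965), was at 145 CPM in Trpm8 neurons, 98.4 in Nefh, 28.1 in Mrgprd and 27.9 in Calca Trpv1 neurons. Its 5.19-fold range was the widest among genes with a mean of 20 CPM or more over the 4 groups, and it ran from 307 UMIs in Trpm8 neurons to 167 in Calca Trpv1 neurons, with Mrgprd neurons (92 UMIs) next to the lowest. In neurons of both the Nefh and the Trpm8 group Ndufaf5 reached 194 CPM, against 74.9 in Nefh neurons with no Trpm8 UMI and 69.3 in the other Trpm8 neurons. Cox5a, a nuclear-encoded subunit on the matrix side of complex IV (chromosome 9, 57517328 to 57532427), followed with 1700 CPM in Trpm8, 1343 in Nefh, 627 in Calca Trpv1 and 465 in Mrgprd neurons, a 3.66-fold range. Ndufa12, an N module subunit, ran from 358 CPM in Trpm8 to 109 in Mrgprd neurons, and Uqcrc2, a core protein of complex III, from 544 to 184.

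Next in the width of their range were Atp5c1, Atp5g1 and Ndufab1, with 2.91-fold, 2.88-fold and 2.87-fold. Atp5c1 is the gamma subunit, the rotating shaft of the ATP synthase, and stood at 1359 CPM in Trpm8 and 468 in Mrgprd neurons. Ndufab1, the mitochondrial acyl carrier protein, stood at 570 and 199 CPM. Each of these had its highest level in Trpm8 neurons, as Ndufaf5, Cox5a, Ndufa12 and Uqcrc2 did.

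Compared directly, a pairing chosen after the levels had been seen, Trpm8 neurons exceeded Mrgprd neurons in 77 of 79 genes. The median ratio was 2.11 where that of all 6880 genes was 0.994, and 70 of the 79 were at least 1.5 times higher with 0 lower (all genes 19.9% higher and 22.9% lower). Cox5a had a ratio of 3.66 (3.44 to 3.89) and Ndufaf5 one of 5.15 (4.06 to 6.57). The exceptions were Ndufv1 and Ndufaf7. Ndufv1, which binds NADH and FMN, had 313 CPM in Trpm8 neurons and 346 in Mrgprd neurons, a ratio of 0.903 (0.820 to 0.995), and Ndufaf7, an arginine methyltransferase needed for assembly of complex I, had 72.1 and 76.1. Nefh neurons with no Trpm8 UMI also exceeded Mrgprd neurons outside the Nefh group, in 77 of 79 genes with a median of 1.395 (all genes 0.992). Of the 79, 28 were at least 1.5 times higher (all genes 13.8%) and 0 lower (all genes 13.5%). Of these 545 Nefh neurons 57 also met the Mrgprd limit and stayed in the comparison, at a summed share of 2.96%. The 482 with no Mrgprd UMI were at 4.75%, and the gene counts were not repeated without the 57.

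**Figure D4:**
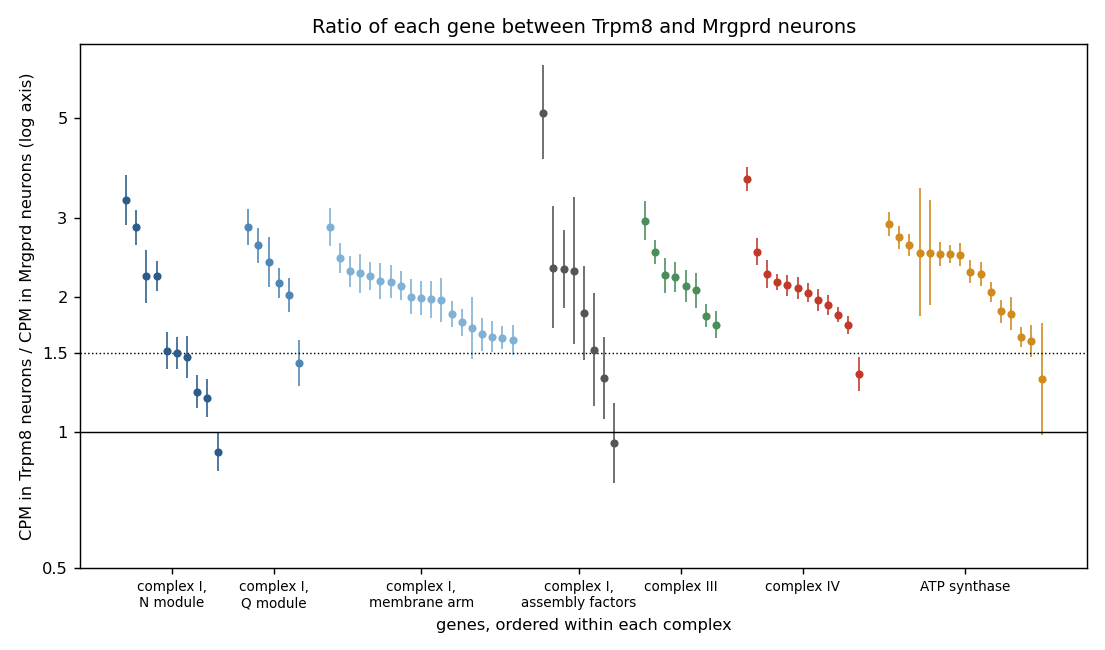
Ratio of each gene's CPM in Trpm8 neurons to that in Mrgprd neurons on a log axis, ordered within each complex, with 95% intervals for counting error; the dotted line marks a ratio of 1.5 and the solid line 1. Of 79 genes 77 lie above 1, and the highest is Ndufaf5 at 5.15.

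The N module of complex I had the lowest median ratio of Trpm8 to Mrgprd neurons among the complexes and modules, 1.51. Its share was 0.443% of UMIs in Trpm8 and 0.266% in Mrgprd neurons, and it made up 7.01% of the set's UMIs in the former and 8.72% in the latter. Ndufv2 and Ndufa12 were at 650 and 358 CPM in Trpm8 neurons and at 227 and 109 in Mrgprd neurons, while Ndufa2 was at 447 and 363 and Ndufv1 was reversed. Complex IV made up 29.9% of the set's UMIs in both groups, and complex III 9.96% and 9.68%.

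Where a subunit has more than 1 gene, 1 form usually supplied nearly all UMIs. Over all neurons Cox4i1 had 1754 CPM and Cox4i2, the form induced by low oxygen in lung, 1.10; Cox6a1 had 1275 and the muscle form Cox6a2 0.717; Cox6b1 had 1098 and the testis form Cox6b2 2.68. Cox8a had 943 CPM, and Cox8b had 1 UMI in 3855 neurons, as did Ndufa4l2, the relative of Ndufa4. Cox7a2, the widespread form, had 1045 CPM, and Cox7a2l, which joins complexes III and IV into supercomplexes, 339. Cox7a2l was also among the most even genes, at 456 CPM in Trpm8, 369 in Nefh, 339 in Calca Trpv1 and 339 in Mrgprd neurons.

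Cox7a1, the heart and muscle form, was low but unevenly placed. It had 27 UMIs in 244 Trpm8 neurons (12.7 CPM), 48 in Nefh neurons (6.79), 17 in Calca Trpv1 neurons (2.84) and 1 in 379 Mrgprd neurons (0.306). A Cox7a1 UMI was found in 8.61% of Trpm8 neurons (5.41 to 12.9) at a median depth of 5671 UMIs and in 0.264% of Mrgprd neurons at a median of 5371. With every barcode thinned to 1000 UMIs the expected shares were 1.09% and 0.0213%. Of the 27 UMIs in Trpm8 neurons 23 lay in the 128 neurons also in the Nefh group (17.9 CPM, 14.1% of barcodes), and the other 116 had 4 (4.78 CPM, 2.59% of barcodes, 0.207% thinned). The same 23 are part of the 48 in Nefh neurons, and the 545 Nefh neurons with no Trpm8 UMI had 20 (3.60 CPM, 3.49% of barcodes, 0.352% thinned). Outside the neurons a UMI was found in 0.184% of Gh barcodes (0.106% thinned, median depth 2061 UMIs), 1.79% of Mobp barcodes (0.318% thinned, 1848 UMIs), 1.27% of Omp barcodes (0.498% thinned, 1355 UMIs) and 0 of 137 Flt1 barcodes, where a floor of 3 barcodes allows up to 2.19%. The values of the other 116 Trpm8 neurons and of the groups outside the neurons rest on 4 UMIs or fewer each and are not read as a difference. The ratio of Trpm8 to Mrgprd neurons was 41.6 with an interval of 6.86 to 1705, set by the single UMI.

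The paralogs of subunit c of the ATP synthase went different ways. Atp5g1, Atp5g2 and Atp5g3 encode the same mature protein with different import sequences. Atp5g1 had 1554 CPM in Trpm8, 1113 in Nefh, 572 in Mrgprd and 540 in Calca Trpv1 neurons, and Atp5g3 had 1391, 980, 610 and 641. Atp5g2 was far lower, at 47.6, 29.5, 19.0 and 42.0 CPM, so that Calca Trpv1 neurons were second for this gene and last for Atp5g1. Against neurons outside the group Atp5g2 was 1.496 times as high in Calca Trpv1 neurons (1.27 to 1.75), just under the limit of a call.

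Gh, Flt1 and most Mobp barcodes had lower shares than neurons. Gh barcodes had 1.66% (1.64 to 1.68), or 0.420 times that of all neurons, and 68 of 78 genes were at least 1.5 times lower and 1 higher, where 53.8% of all genes were lower and 16.0% higher. The counts were the same in the 539 of 200 to 7500 genes (all genes 53.7% lower and 16.1% higher). Gh alone took 33.4% of their UMIs. With Gh, the other choosing genes and the mitochondrial genes left out of the denominator, a setting chosen after the values were seen for the count, the share ratio was 0.629 and 44 of 79 were lower and 3 higher, where 34.8% and 30.9% of all genes were. Ndufaf5 was lowest relative to neurons, at 4.62 CPM or 0.0850 times (0.0341 to 0.176), followed by Cox5a at 0.168, Ndufa4 at 0.223 and Ndufa9, a Q module subunit, at 0.226. Atp5g2, at 57.4 CPM, was 1.79 times higher (1.42 to 2.25), and Atp5e, the small epsilon subunit, 1.201 times (1.11 to 1.30). Ndufa1 was at 1.02 times and Ndufb11 at 0.916 times, with intervals that include 1. With the other denominator these 4 were at 2.69 times for Atp5g2, 1.80 for Atp5e, 1.53 for Ndufa1 (1.39 to 1.69) and 1.37 for Ndufb11, and Ndufaf5, Cox5a, Ndufa4 and Ndufa9 remained the lowest, at 0.127, 0.251, 0.335 and 0.339 times.

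Flt1 barcodes had 1.82% (1.77 to 1.87) and a median ratio of 0.434 to neurons (all genes 0.816), with 58 of 77 lower (all genes 42.9%) and 1 higher (all genes 28.6%). In the 131 of 200 to 7500 genes, 57 were lower (all genes 41.8%) and 1 higher (all genes 29.3%). That gene was again Atp5g2, at 97.0 CPM from 26 UMIs, 3.03 times its level in neurons (1.96 to 4.48). Uqcrb, a small complex III subunit, was at 1.13 times, Ndufc2 at 0.899 and Atp5j, coupling factor 6, at 0.831. At the other end Atp5k, the e subunit, was at 0.169 times, Atp5s at 0.203 from 2 UMIs (0.0245 to 0.735), Ndufb2 at 0.236 and Ndufab1 at 0.244. Hemoglobin and pituitary genes were abundant in these barcodes, with Hbb-bs at 35148 CPM and Gh at 16094 CPM. Both mitochondrial rRNAs were higher there than in neurons, at 3.62 and 4.47 times, as were 76 of 85 cytosolic ribosome genes, with a median of 2.25 (all genes 28.6%). The part of these in the result was not tested.

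Mobp and Omp barcodes each held 6 barcodes of more than 7500 genes with a higher share, 5.64% and 4.38%. Of the 158 Omp barcodes 85 had a UMI for at least 3 of the 6 neuronal genes, as did 12 of the 223 Mobp barcodes and 82 of the 543 Gh barcodes, and the part of this in the results was not tested. Pooled, Mobp barcodes were at 3.88% and Omp barcodes at 3.91%, close to all neurons. With 200 to 7500 genes, a limit chosen after the values were seen that left out 51.1% and 64.4% of the UMIs, the 213 remaining Mobp barcodes were at 2.10% (2.06 to 2.13) and the 152 Omp barcodes at 3.06% (2.99 to 3.13), as the medians over barcodes of 2.04% and 3.07% in the whole groups also were. Counts moved with it: 3 genes higher (all genes 13.3%) and 1 lower (all genes 22.7%) of 79 in the pooled Mobp barcodes became 2 higher (all genes 21.7%) and 54 lower (all genes 41.1%) of 76. In Omp barcodes 3 higher (all genes 12.9%) and 0 lower (all genes 16.4%) of 79 became 3 higher (all genes 29.2%) and 25 lower, near the 35.3% of all genes. Both mitochondrial rRNAs were higher in these 152 Omp barcodes than in neurons, at 3.17 and 3.97 times. Of 6 compared genes for RNA of other cells, 5 were higher and 1 lower, with a median of 7.33 times. The part of these in the Omp result was not tested.

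A few genes kept a high level in the smaller Mobp barcodes. Ndufaf2 was at 114 CPM, 1.997 times that of neurons (1.51 to 2.59), and Ndufa3, a membrane arm subunit, at 322 CPM or 1.51 times (1.29 to 1.76); both also exceeded neurons in the pooled group, at 2.13 and 1.501 times. Ndufaf5 at 0.176 times, Cox7b at 0.249, Atp5g1 at 0.293 and Ndufa5 at 0.306 were the lowest. In the pooled group Ndufa12 was at 1.55 times and Atp5g2 at 1.46, and Ndufaf1, Ndufaf7, Ndufv1 and Atp5g3 were the lowest, at 0.619 to 0.731 times.

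Omp barcodes of 200 to 7500 genes combined high and low genes. Ndufaf4, an assembly factor of complex I, was at 196 CPM, 2.61 times that of neurons (1.91 to 3.49), Ndufv3, a small N module subunit, at 722 CPM or 1.91 times (1.64 to 2.23), and Atp5l, the g subunit, at 75.1 CPM or 1.91 times (1.12 to 3.03). Atp5sl was at 1.47 times from 9 UMIs (0.669 to 2.82). Ndufb2 at 0.246 times, Atp5g1 at 0.264, Ndufa9 at 0.295 and Ndufaf5 at 0.307 were the lowest. Among all Omp barcodes Atp5l at 1.88, Ndufaf4 at 1.84, Ndufb3 at 1.59 and Ndufaf6 at 1.38 times were the highest, and Atp5k, Atp5a1, Atp5j2 and Ndufb2 the lowest, at 0.702 to 0.813 times.

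Genes of related pathways were read beside the set. Transcripts encoded by mitochondrial DNA followed a different order from the nuclear set. The 11 protein-coding mitochondrial genes in the table took 1.66% of UMIs in Nefh neurons, 1.57% in Trpm8, 0.854% in Calca Trpv1 and 0.639% in Mrgprd neurons, and 7 of the 11 had enough UMIs to compare. Nuclear UMIs of the set outnumbered them 4.01 to 1 in Trpm8 neurons, 2.95 to 1 in Nefh, 3.91 to 1 in Calca Trpv1 and 4.77 to 1 in Mrgprd neurons, and 1.80 to 1 in Gh barcodes. Against neurons outside the group, 0 of 7 were at least 1.5 times higher in Trpm8 neurons (all genes 9.42%), with ratios from 1.10 for mt-Co1 to 1.48 for mt-Nd6. Nefh neurons had 4 of 7 higher (all genes 6.51%), and Mrgprd neurons had 7 of 7 lower (all genes 14.0%) with a median of 0.445. Calca Trpv1 neurons had 5 of 7 lower (all genes 8.30%) and 0 higher, with a median of 0.570.

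Complex II and cytochrome c, which belong to the chain but have other symbols, and the TCA cycle, which supplies it with electrons, followed the nuclear order. In Trpm8 neurons 5 of 6 genes of complex II and cytochrome c and 11 of 15 TCA cycle genes were at least 1.5 times higher than in other neurons, with medians of 1.80 and 1.79 (all genes 9.42% higher). Cyc1, cytochrome c1 of complex III, which the symbol rule leaves out, was at 896 CPM in Trpm8, 625 in Nefh, 290 in Calca Trpv1 and 225 in Mrgprd neurons, and Idh3b, a subunit of isocitrate dehydrogenase, at 619, 403, 228 and 186. Ogdh, of the 2-oxoglutarate dehydrogenase, was nearly equal, at 186 CPM in Trpm8 and 185 in Mrgprd neurons. Ribosomal genes differed less. In Trpm8 neurons 14 of 73 mitochondrial ribosome genes were higher and 0 lower, with a median of 1.34, and 0 of 85 cytosolic ribosome genes passed the limit in either direction, with a median of 1.05 (all genes 9.42% higher and 15.7% lower).

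Of 16 glycolysis genes 5 were at least 1.5 times higher in Trpm8 neurons (all genes 9.42%), with a median of 1.397. In Mrgprd neurons 7 of 16 were lower (all genes 14.0%), and the 2 higher were near the 12.9% of all genes. Ldhb, the lactate dehydrogenase form prevalent in oxidative tissue, was at 980 CPM in Trpm8, 715 in Nefh, 110 in Calca Trpv1 and 30.9 in Mrgprd neurons, while Aldoc, an aldolase, was at 191, 250, 70.4 and 355. Chchd10, a protein of the intermembrane space, was at 1466 CPM in Trpm8, 754 in Nefh, 167 in Calca Trpv1 and 65.1 in Mrgprd neurons. Ppargc1b, a coactivator of mitochondrial genes, was low but followed the same order, at 65.5, 37.6, 8.19 and 2.45 CPM. Yy1, whose core was among the motifs above, was at 66.0 CPM in Trpm8 and 74.9 in Mrgprd neurons.

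**Figure D5:**
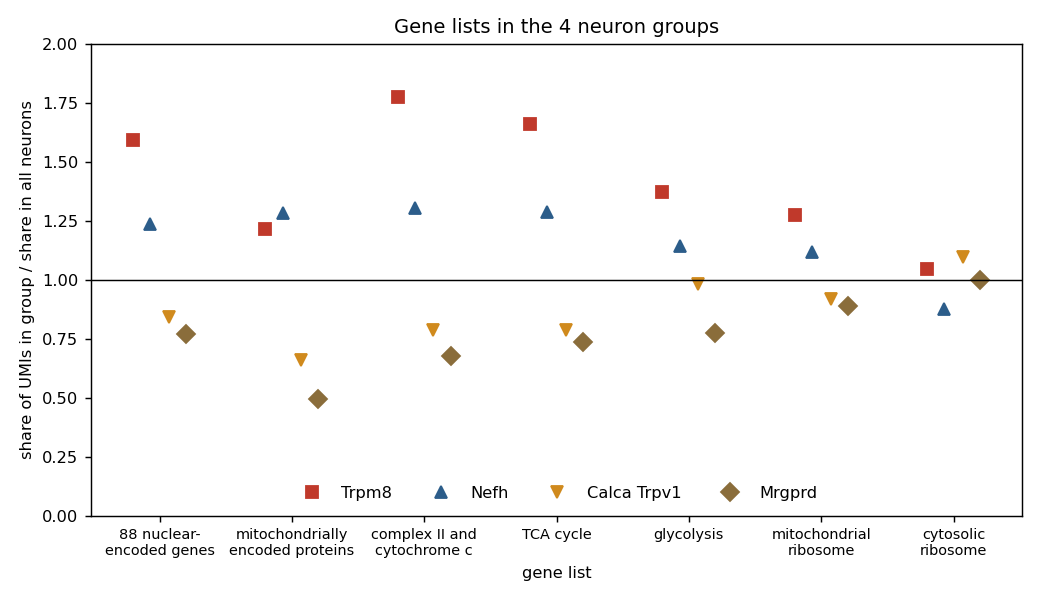
Share of UMIs of each gene list in the 4 neuron groups, relative to all neurons (vertical axis, linear from 0), with the 88 nuclear-encoded genes at the left. Trpm8 neurons are highest in the nuclear-encoded, complex II, TCA cycle, glycolysis and mitochondrial ribosome lists, Nefh neurons in the mitochondrially encoded list (1.66% of UMIs) and Calca Trpv1 neurons in the cytosolic ribosome list.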

How the data were processed

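The deposited table holds UMI counts per gene and barcode, whole numbers that the authors made by mapping reads with STAR and keeping barcodes of over 1000 transcripts. The submitters' processing notes name STAR 2.5.3a, bcl2fastq 2.17, Seurat 1.4.0.16 and mm10. The values are not normalized, and barcodes held 1000 to 190815 UMIs (median 2031). Counts were summed over the barcodes of a group and divided by its total UMIs with Python 3.11.15, numpy 2.4.6 and scipy 1.17.1. Shares have exact binomial (Clopper-Pearson) intervals, CPM exact Poisson intervals and ratios exact conditional intervals. A gene was compared where its mean over group and reference was 20 CPM or more, and called past a fold of 1.5. Neuron groups were set against neurons outside the group, other groups against all neurons. The fold calculation was tested on simulated counts. No doublet caller was run, barcodes that met the limits of 2 groups were kept (128 for Nefh and Trpm8, 57 for Nefh and Mrgprd, 34 for Mrgprd and Calca Trpv1, 19 for Trpm8 and Calca Trpv1, and 1 to 5 for each pair of the groups outside the neurons), and 6 barcode sequences are listed 2 times. Reads of near-identical copies, such as Atp5l and Atp5l-ps1 or the subunit c paralogs, may have been split or lost by the counting. Genes named are the 6 highest in neurons, the 8 most unequal among neuron groups, the 4 highest and 4 lowest ratios in each other group, paralogs of tissue isoforms and the extremes of each comparison list; others were named after their values were seen, and 1 gene under the rule is not reported here. Members, groups and lists were chosen with earlier results of these data known. Alternatives varied the denominator, depth, limits, averaging, overlaps, fold and filter.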

Additional observations from a re-analysis of the deposited data

How the results depend on the processing

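With each group and its reference held to 2000 to 10000 UMIs, the share ratio was 1.47 in Nefh, 0.782 in Mrgprd and 0.799 in Calca Trpv1 neurons, and 0.444, 0.553, 0.498 and 0.730 in Gh, Mobp, Flt1 and Omp barcodes, with 12 of 78 genes past the fold in Mrgprd neurons, all lower (all genes 15.5%), 53 of 77 in Mobp barcodes, 51 of them lower (all genes 40.3%), and 36 of 78 in Omp barcodes, 35 of them lower (all genes 35.8%). Looser limits on the marker genes gave 1.34 in Nefh, 1.61 in Trpm8 and 0.808 in Calca Trpv1 neurons, 0.444 in Gh and 1.11 in Omp barcodes, the last on the other side of 1. Stricter limits gave 1.49, 1.74, 0.394, 0.738 and 0.769 in Nefh, Trpm8, Gh, Mobp and Omp. Barcodes of 1 group only gave 1.37, 1.45, 0.775 and 0.805 in Nefh, Trpm8, Mrgprd and Calca Trpv1 neurons and 0.436, 1.03, 0.481 and 1.03 in Gh, Mobp, Flt1 and Omp barcodes, where Mobp and Omp crossed 1. The other denominator gave 0.727 in Mrgprd and 0.629 in Gh, and the mean per cell 0.793, 0.838, 0.581, 0.484 and 0.864 in Mrgprd, Calca Trpv1, Mobp, Flt1 and Omp. Among settings chosen after seeing the data, neurons under 1% RNA of other cells gave 1.398, 1.68, 0.717 and 0.780, and barcodes of 200 to 7500 genes gave 0.529 with 56 genes in Mobp and 0.773 with 28 in Omp. At a fold of 2, of 79 genes 1 was higher in Nefh neurons (all genes 2.27%) and 7 in Trpm8 neurons (3.30%), 3 were lower in Mrgprd neurons (7.36%) and 1 in Calca Trpv1 neurons (3.83%), and 1 and 0 were higher in Mobp and Omp barcodes (7.82% and 7.05%). Among these 6 groups the share of the set exceeded that of all genes in Trpm8 neurons only, while in Gh and Flt1 barcodes 50 of 78 and 49 of 77 were lower (41.5% and 32.2%). Without the CPM filter 11 of 86 were lower in Calca Trpv1 neurons (19.4%) and 5 of 84 higher in Omp barcodes (25.6%). The cause of the reversals was not tested beyond the values given. The 4 neuron groups kept their direction under each of these settings. No paired analysis was possible because all runs form 1 group and the barcodes carry no run number. With 1 pooled sample, spread between mice or runs is unknown, and fewer mRNAs of other kinds cannot be told apart from more of these. In Flt1 and Omp barcodes single genes rest on few UMIs.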

Other observations

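Most of Cox6b2, the testis form of subunit 6b, lay outside the groups described (a gene and splits chosen after their values were seen). Of its 411 UMIs, 326 were in the 2099 barcodes that were neither neurons nor members of a group, where 10.5% of barcodes had a UMI (95% interval 9.20 to 11.9; 7.11% expected after thinning to 1000 UMIs), against 1.37% of neurons (0.360% after thinning). Among those barcodes, the 155 with a UMI of Car1, carbonic anhydrase 1 of red cell precursors, had one for Cox6b2 in 52.9% (44.7 to 61.0; 33.3% after thinning), and the 1944 without Car1 in 7.10% (5.03% after thinning), at median depths of 1720 and 1370 UMIs. The 257 with Klf1, an erythroid transcription factor, had one in 33.1% (20.9% after thinning), and the 1842 without in 7.33%. Cox6b2 was at 386 CPM in the Car1 barcodes, beside 811 CPM of Cox6b1. No explanation was tested.

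Nefh neurons with no Trpm8 UMI were themselves uneven, as splits by genes chosen after their values were seen showed. The 142 with an Ntrk2 UMI, the receptor of brain-derived neurotrophic factor, had a summed share of 5.40% (5.37 to 5.44), and the 403 without 4.02%, at similar median depths of 5969 and 5823 UMIs. The 63 with a Mrgprd UMI were at 3.01%, and 57 of them are also Mrgprd neurons, at a median depth of 14304 UMIs. Those with a Scn1a UMI, a sodium channel of fast-firing neurons, were at 4.88% and those without at 3.56%, at median depths of 7174 and 4674 UMIs. Other splits ran the other way, with 4.34% in neurons with a UMI of the mechanotransduction channel Piezo2 and 5.59% without (7433 and 2630 UMIs), 4.14% with Calca and 4.99% without (9242 and 3984), and 3.91% with Cd34 and 4.57% without (16762 and 4875).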
